A study of Mus musculus with 3 samples.

Results

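Lamina-associated domains (LADs) are long stretches of chromatin that touch the nuclear lamina, the protein layer that lines the inner face of the nuclear envelope. The set described here was taken from the coordinates that the authors deposited together with the nearest binding site of Nuclear Factor I (NFI), as the distinct domains and not their complement. It held 1235 domains on 20 chromosomes of the mouse genome mm9. When the 6 intervals that overlap another one were joined with it, 1229 domains and 1250 stretches between them remained, 2479 regions in all. The domains covered 1025 Mb, or 39.8% of the known bases. Their length ranged from 44.0 to 15503 kb, with a median of 480 kb and quartiles of 215 and 1045 kb. Tags, sites and genes were counted in them, in the 100 kb on either side of an edge (the outer flank), and beyond 100 kb from any domain.

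According to the note deposited with the files, the domains were mapped in Tig3 cells, a line of human fibroblasts, and carried over to mm9 by a lift-over tool. They were thus not measured in the mouse cells of this study. A lift-over can place a domain only where human and mouse sequence align. All values below refer to these human-derived positions, and no lamina contact was measured in the mouse embryonic fibroblasts.

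In fibroblasts, lamina domains are known to be poor in genes and in transcription, rich in A and T, and to contain many genes that are used in other tissues. Their borders often carry promoters that point away from the lamina, sites of the insulator protein CTCF, and a belt of histone H3 lysine 27 trimethylation (H3K27me3), the mark of Polycomb repression. NFI proteins are transcription factors encoded by the paralogous genes Nfia, Nfib, Nfic and Nfix. Paired NFI molecules contact a symmetric DNA sequence, each on its own side, and bind more weakly where part of it is missing.

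Tags of 3 ChIP-Seq libraries of primary mouse embryonic fibroblasts (MEF) were counted. All cells were of the strain C57BL/6, were taken from embryos of day 14.5 and were at passage 6 to 7. The libraries were NFI ChIP in wild-type MEF, NFI ChIP in NFI-C knock-out MEF, and wild-type input DNA without antibody. The antibody recognizes the NFI group of proteins and does not single out NFI-C, and the labels do not describe the knock-out allele. The knock-out library is called wild-type in its description but knock-out in its title, and it was grouped by the title. Expression data were not analysed here, so the cell type was not checked against markers. The libraries held 12029975 to 16330049 reads. After tags that repeat the same position and strand were reduced to 1, 3350071 tags of the wild-type ChIP, 3132004 of the knock-out ChIP and 4100449 of the input remained. Before this step there were 9771419, 10809682 and 5411989 uniquely mapped reads in this order, so the ChIP libraries lost a larger part than the input. Each condition had 1 library, so that no test across samples was possible. Intervals in parentheses are 95% intervals that cover counting error only, exact (conditional binomial or Poisson) unless stated otherwise. The targeted gene Nfic held 50 tags (wild-type), 66 (knock-out) and 151 (input), which does not check the label, because a disrupted allele need not lose its tags.

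The consensus looked for was the palindrome TTGGCANNNTGCCAA, of which the 12 letters other than N are fixed. Being its own reverse complement, it was read once for both strands. The following sequences lie at deposited NFI sites inside lamina domains. They were chosen by their wild-type tags, from sites that have a match of at most 2 mismatches and fewer than 5 input tags. Only 357 of the 12878 sites inside (2.77%) have such a match, so the sequences do not show what most sites look like. A further site of this choice is not printed. Capitals mark the match, and 20 bases on each side are in lower case. All are given 5′ to 3′ on the forward strand of mm9.
Fam189a1 intron, match at chr7:71983737-71983751, 1 mismatch: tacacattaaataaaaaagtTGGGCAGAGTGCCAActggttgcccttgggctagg
Intergenic, nearest gene Celf2, match at chr2:7168088-7168102, 1 mismatch: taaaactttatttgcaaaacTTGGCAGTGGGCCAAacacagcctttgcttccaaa
Acadm intron, match at chr3:153606396-153606410, 2 mismatches: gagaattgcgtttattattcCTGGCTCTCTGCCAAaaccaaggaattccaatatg
Intergenic, nearest gene Ofcc1, match at chr13:39783294-39783308, 2 mismatches: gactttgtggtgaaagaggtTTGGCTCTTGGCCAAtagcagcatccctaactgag
Only the match at Acadm lay within a few bases of the centre of its site (2 bp). The others were 42 bp (Fam189a1), 129 bp (Celf2) and 112 bp (Ofcc1) away from it. At the intronic site of Fam189a1, 10 wild-type tags stood against 0 knock-out and 0 input tags in 300 bp, and at the site near Ofcc1, 8 stood against 0 and 1. The site near Celf2 had 9 tags (wild-type), 7 (knock-out) and 0 (input). The site in Acadm, which encodes medium-chain acyl-CoA dehydrogenase of fatty acid oxidation, had 8, 4 and 0. The knock-out tags ranged from none to nearly the wild-type number at these sites, at counts of 10 or fewer. The last place on this list was shared by 3 sites with 8 tags. The counts are of 5′ ends at the positions where they were mapped. The authors instead moved tags by 75 bp before they called a site at 5 tags in 300 bp, so a deposited site can hold fewer than 5 tags here.

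All 3 libraries had fewer tags per mappable base inside the domains than outside, and the input was the lowest. A base was called mappable when the 32 bases starting there occur once in the genome. Inside the domains, the wild-type ChIP stood at 0.937 times its genome average (0.936 to 0.939), the knock-out ChIP at 0.930 times (0.928 to 0.932) and the input at 0.868 times (0.867 to 0.870). Beyond 100 kb from any domain both ChIP libraries stood at 1.04 times and the input at 1.09 times the average. The density inside over that beyond was 0.903 for the wild-type ChIP, 0.890 for the knock-out ChIP and 0.800 for the input.

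After division by the input, both ChIP libraries were therefore higher inside. The wild-type over input quotient, scaled to 1 for the whole genome, was 1.08 inside and 0.957 beyond, a ratio of 1.13 (1.12 to 1.13). For the knock-out over input quotient the ratio was 1.11, and for wild-type over knock-out ChIP 1.01 (1.01 to 1.02). The 3 quotients share libraries and are no independent measurements. The first was above 1 on 20 of 20 chromosomes, between 1.03 and 1.22, and the second on 20 of 20, between 1.04 and 1.21. Wild-type over knock-out ChIP was above 1 on 16 of 20 and never outside 0.988 to 1.04. Both ChIP libraries thus divided their tags between the domains and the rest in nearly the same proportion on every chromosome. This holds for tags reduced to 1 per position and strand. With every uniquely mapped tag counted, the genome-wide ratio for wild-type over knock-out ChIP was 1.06 (1.05 to 1.06).

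Single domains spread widely around these values. Among 1162 domains with at least 100 tags in each library, the wild-type over input quotient ran from 0.384 to 1.71 with a median of 1.06, against a median of 0.997 over 1177 stretches between domains. Of the domains, 58 (4.99%) were at least 25% above the genome value and 53 (4.56%) at least 20% below it, which is the same fold in both directions. Over domains and stretches together the background was 4.49% above and 6.54% below. The stretches had 47 (3.99%) above and 100 (8.50%) below, so that the domains stood near the background above and under it below. For the knock-out over input quotient 65 domains (5.59%) were above and 33 (2.84%) below, with a background of 4.92% and 5.90%. The wild-type over knock-out quotient passed the same limits upwards in 16 domains (1.38%, background 1.62%) and downwards in 24 (2.07%, background 2.01%). Compared with their own outer flanks, 790 of 1162 domains (68.0%) had the higher wild-type over input quotient and 808 (69.5%) the higher knock-out over input quotient. For wild-type over knock-out it was 542 (46.6%).

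The step at the edge was found in all libraries, but it was sharpest in the input. In the first 10 kb outside an edge the input stood at 1.17 times its genome average (1.16 to 1.18), and in the first 10 kb inside at 0.951 (0.942 to 0.961). Both ChIP libraries went from 0.974 (wild-type) and 0.981 (knock-out) inside to 1.03 outside. The lowest wild-type over input quotient of all distance bins therefore lay just outside the domains, at 0.887 (0.875 to 0.899), with the knock-out at 0.883 (0.871 to 0.896). Towards the centre of the domains the input declined further, to 0.815 more than 500 kb from the edge, while the wild-type ChIP remained at 0.931 and the knock-out ChIP at 0.902. The quotient over the input was highest there, at 1.14 (1.14 to 1.15) for the wild-type and 1.11 (1.1 to 1.11) for the knock-out. This was also the distance bin where wild-type over knock-out ChIP was farthest from 1, at 1.03 (1.03 to 1.04).

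**Figure D1:**
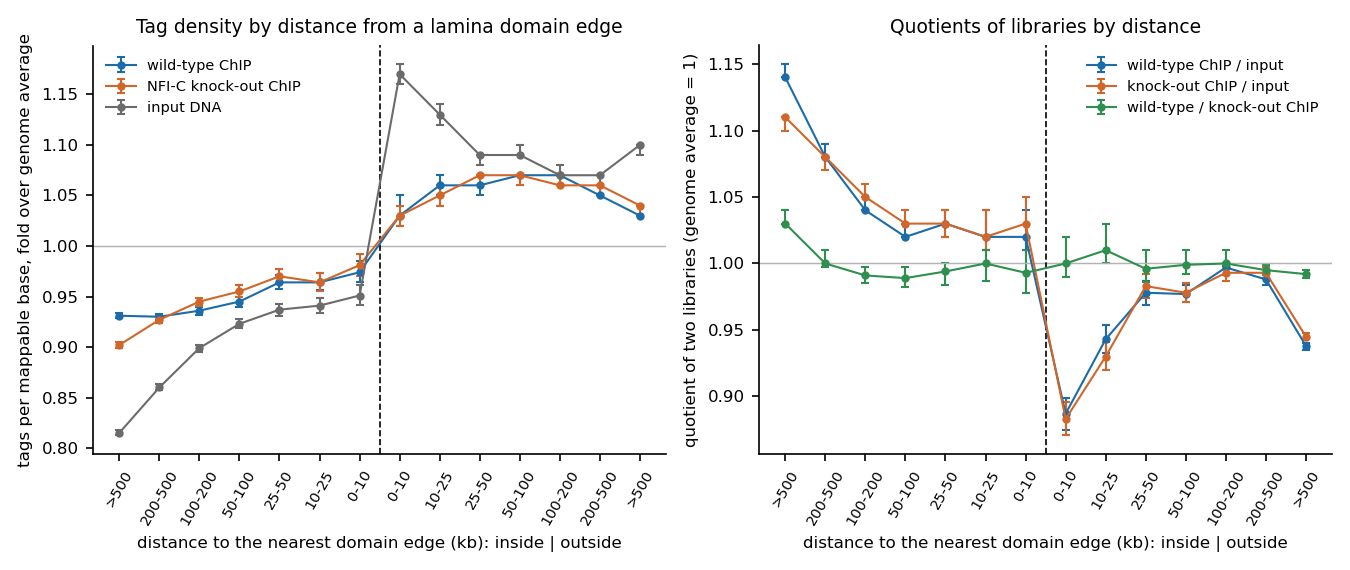
Tag density of the 3 libraries per mappable base as fold over the genome average (left) and quotients of pairs of libraries (right), by distance to the nearest lamina domain edge in kb, with the inside to the left of the dashed line and 95% counting intervals as error bars. The input drops from 1.17 just outside an edge to 0.815 more than 500 kb inside, the ChIP libraries drop less, and wild-type over knock-out stays between 0.989 and 1.03.

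Base composition moved with these values towards the centre of the domains, but hardly at the edge. The domains contained 40.3% G and C and the genome beyond 42.7%, and the share declined from 42.3% in the first 10 kb inside an edge to 38.4% more than 500 kb inside. In the first 10 kb outside the share was 42.9%, and wild-type over input was 0.887. From 100 to 200 kb outside they were 42.6% and 0.997. Over 601 domains of at least 500 kb, Spearman's rho between G and C content and the wild-type over input quotient was -0.836, and for the knock-out -0.587. This is a description over domains, which share the same libraries and are not replicates. In 10 kb windows of 36 to 38% G and C the wild-type over input quotient was 1.19 inside and 1.21 beyond, and in windows of 46 to 48% it was 0.860 and 0.849. The knock-out over input quotient was 1.14 inside and 1.18 beyond in the first of these classes, and 0.913 (0.903 to 0.922) and 0.867 (0.862 to 0.872) in the second. At 44 to 46% both were higher inside, the wild-type at 0.945 (0.938 to 0.952) against 0.918 (0.913 to 0.923) and the knock-out at 0.967 against 0.930. In the class of 54 to 56%, with 42 windows inside, the wild-type quotient was 0.428 (0.387 to 0.474) inside and 0.505 (0.497 to 0.514) beyond. With the outside windows weighted to the G and C content of the domains, the ratio of 1.13 became 1.01 and that of the knock-out also 1.01. In windows of 1 kb, which were tried once the data had been seen, they became 0.988 and 0.991. Averaged over base composition, the ChIP over input quotients of the domains were thus close to those outside, while single classes differed in both directions. The lower density of each library inside remained: with the weights in 10 kb windows it was 0.907 times that outside for the wild-type ChIP, 0.906 for the knock-out ChIP and 0.900 for the input.

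Longer domains were poorer in G and C, genes and input tags. The domains were split into 280 below 200 kb, 348 of 200 to 500 kb, 278 of 500 kb to 1 Mb, 202 of 1 to 2 Mb and 121 above 2 Mb. The wild-type over input quotient was 1.02 (1.01 to 1.04) in the shortest class, 0.999 (0.992 to 1.01) in the next, and then 1.03, 1.09 and 1.14 (1.13 to 1.14) in the longest. The knock-out over input quotient ran from 1.03 to 1.11. Gene starts per Mb declined from 7.71 to 2.87, and the G and C content from 42.7% to 38.5%. Bases in H3K27me3 regions declined from 68.1% to 15.5%. All bases of domains below 200 kb lie within 100 kb of an edge, so that length and distance from the edge are not separate measures.

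**Figure D2:**
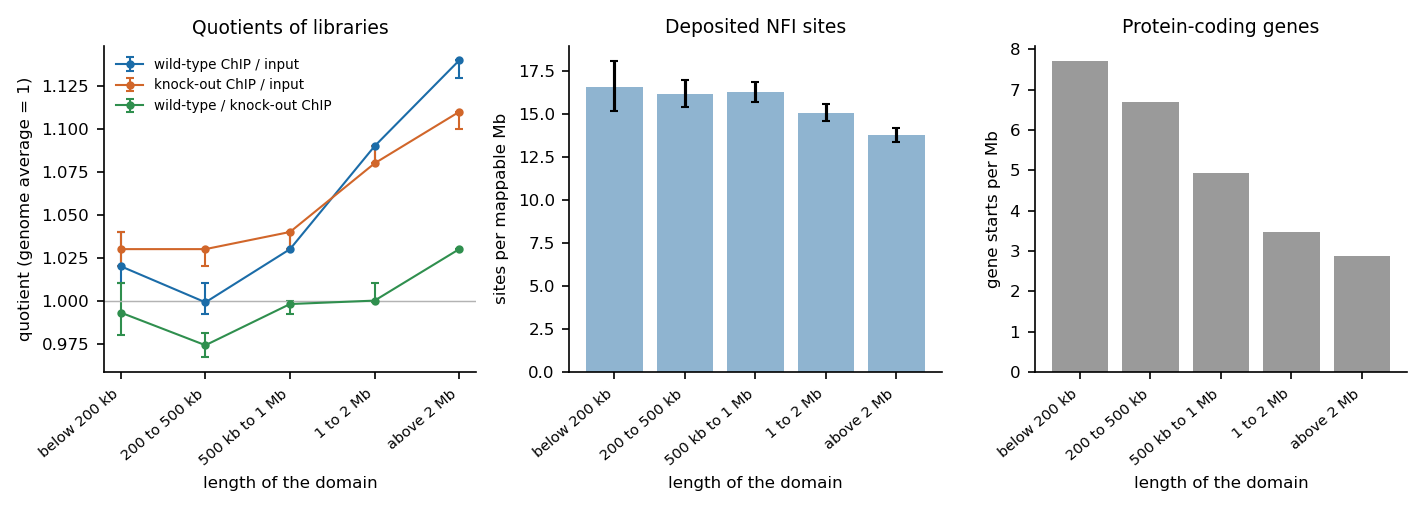
Quotients of libraries (left, 1 is the genome average), deposited NFI sites per mappable Mb (middle) and gene starts per Mb (right) in 5 classes of domain length, with 95% counting intervals as error bars on the first 2 panels. From the shortest to the longest class the wild-type over input quotient goes from 1.02 to 1.14, site density from 16.6 to 13.8 and gene starts from 7.71 to 2.87.

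Deposited NFI sites were less dense inside the domains. Of 39807 sites, 12878 (32.4%) lay inside, 4423 (11.1%) in the outer flank and 22506 (56.5%) beyond. This gave 15 sites per mappable Mb inside (14.8 to 15.3), 23.3 in the outer flank (22.6 to 24.0) and 20.6 beyond (20.3 to 20.9). The inside over beyond ratio was 0.730 (0.715 to 0.747), and on the chromosomes it ranged from 0.613 on chromosome 11 to 0.863 on X, below 1 on 20 of 20. The density was lower than in the own outer flank in 855 of 1229 domains. Windows of 100 kb with at least 1 site made up 65.8% of those wholly inside and 71.1% of those wholly beyond, with 70.5% over the whole genome. A median domain held 6 sites, 85 domains (6.92%) held none, of which 75 were shorter than 200 kb, and no domain held more than 139. The authors called sites at a fixed number of wild-type tags, and the wild-type tag density was also lower inside. Per wild-type tag the ratio was 0.809. The part of tag density in the lower number of sites was not tested.

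Unlike the tag quotients, the site density kept most of its difference at equal base composition. With the outside weighted to the G and C content of the domains the ratio was 0.789, from 15.1 sites per mappable Mb inside and 19.1 outside. The wild-type tag density, from which sites were called, also kept its difference. It was 0.903 times that beyond without the weights and 0.907 times with them in 10 kb windows. Inside the domains, site density hardly followed G and C content, with 13.9 per mappable Mb in windows of 36 to 38% and 15 (13.3 to 16.8) in windows of 48 to 50%. Beyond 100 kb it went from 16.7 to 23.7 (22.6 to 24.8) over the same range. The gap between inside and beyond was thus widest in windows rich in G and C, which also held more input tags. At 48 to 50% the input stood at 1.08 times its average inside and 1.33 times beyond.

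**Figure D3:**
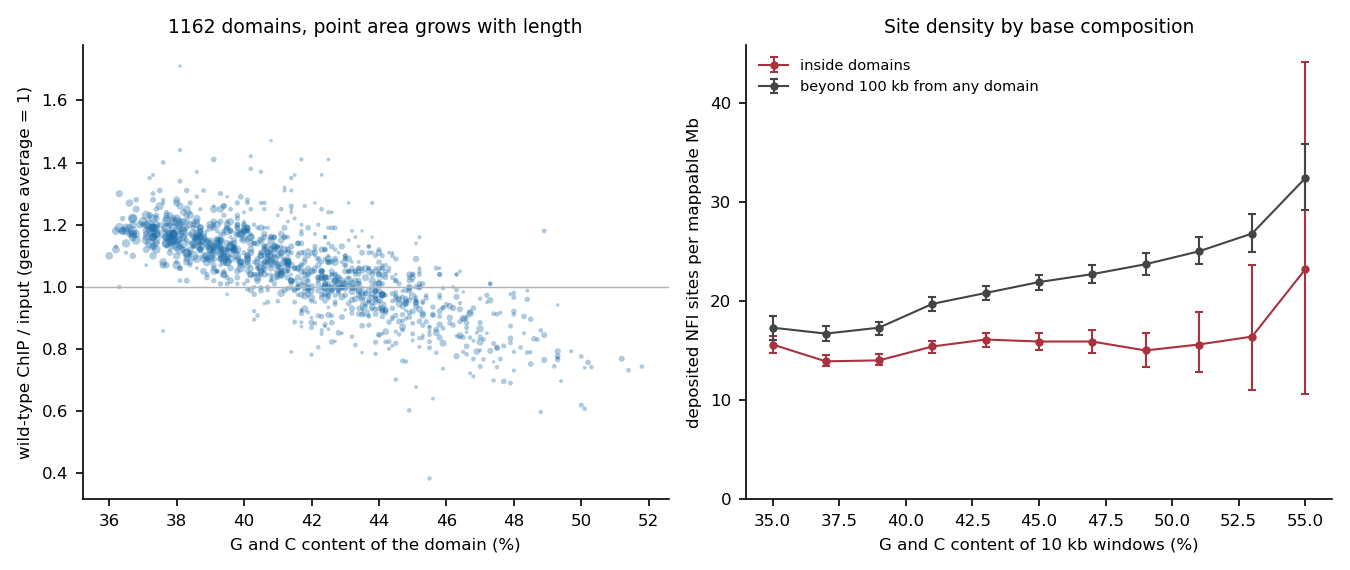
Wild-type over input quotient of 1162 domains against their G and C content in percent (left, each point a domain, larger for longer ones) and deposited NFI sites per mappable Mb in 10 kb windows by G and C content (right, 95% Poisson intervals as error bars). The quotient falls with G and C content, and site density stays near 15 inside while it goes from 16.7 at 36 to 38% to 23.7 at 48 to 50% beyond 100 kb.

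Within the domains the site density was somewhat lower far from the edge. It was 16.8 per mappable Mb (15.1 to 18.6) in the first 10 kb inside an edge, 15.1 from 10 to 25 kb, 15.9 from 100 to 200 kb, and 13.9 (13.5 to 14.3) more than 500 kb inside. Outside, it was 22.0 (20.1 to 24.1) in the first 10 kb, 24.0 from 10 to 50 kb and 19.6 (19.3 to 19.9) beyond 500 kb. The largest step between neighbouring bins lay at the edge itself. The intervals of the first 10 kb and of the next bin overlapped inside (13.8 to 16.5 from 10 to 25 kb) and outside (22.4 to 25.8). Seen from the 2458 edges, a site lay within 10 kb on the outer side of 409 (16.6%, 15.2 to 18.2) and on the inner side of 327 (13.3%, 12 to 14.7). Within 100 kb the shares were 82.5% and 68.3%. The median distance from an edge to the first site was 35.3 kb outwards and 54.9 kb inwards. Outwards the search ran on into neighbouring domains, while inwards it ended at the far edge of the same domain. A domain without a site counted as having none at any inward distance. The shares within 100 kb and the medians therefore do not compare equal ranges.

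Genes and CTCF motifs behaved otherwise at the edge. Gene starts (GENCODE vM1, protein-coding) numbered 4.04 per Mb inside, 12.7 in the outer flank and 11.7 beyond. In the first 10 kb outside they reached 17.8 per Mb, against 5.70 in the first 10 kb inside. Of the 436 genes that start in these outer 10 kb, 285 (65.4%, 60.7 to 69.8) were transcribed away from the domain. The share was 57.7% (53.3 to 62.1) from 10 to 25 kb and 49.6% (46.6 to 52.7) from 50 to 100 kb. The core of the CTCF motif, searched as CCANNAGNNGGC on both strands, occurred 37.9 times per Mb inside and 66.3 times beyond, over a genome value of 55. It peaked at 74.0 per Mb in the first 10 kb outside and went down to 26.1 more than 500 kb inside. A match to these letters is not a measured CTCF site. Promoters that point outwards were thus crowded in the first 10 kb outside the transferred edges. NFI sites had no peak in these 10 kb, though they were denser in the outer flank (23.3 per mappable Mb) than beyond (20.6).

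**Figure D4:**
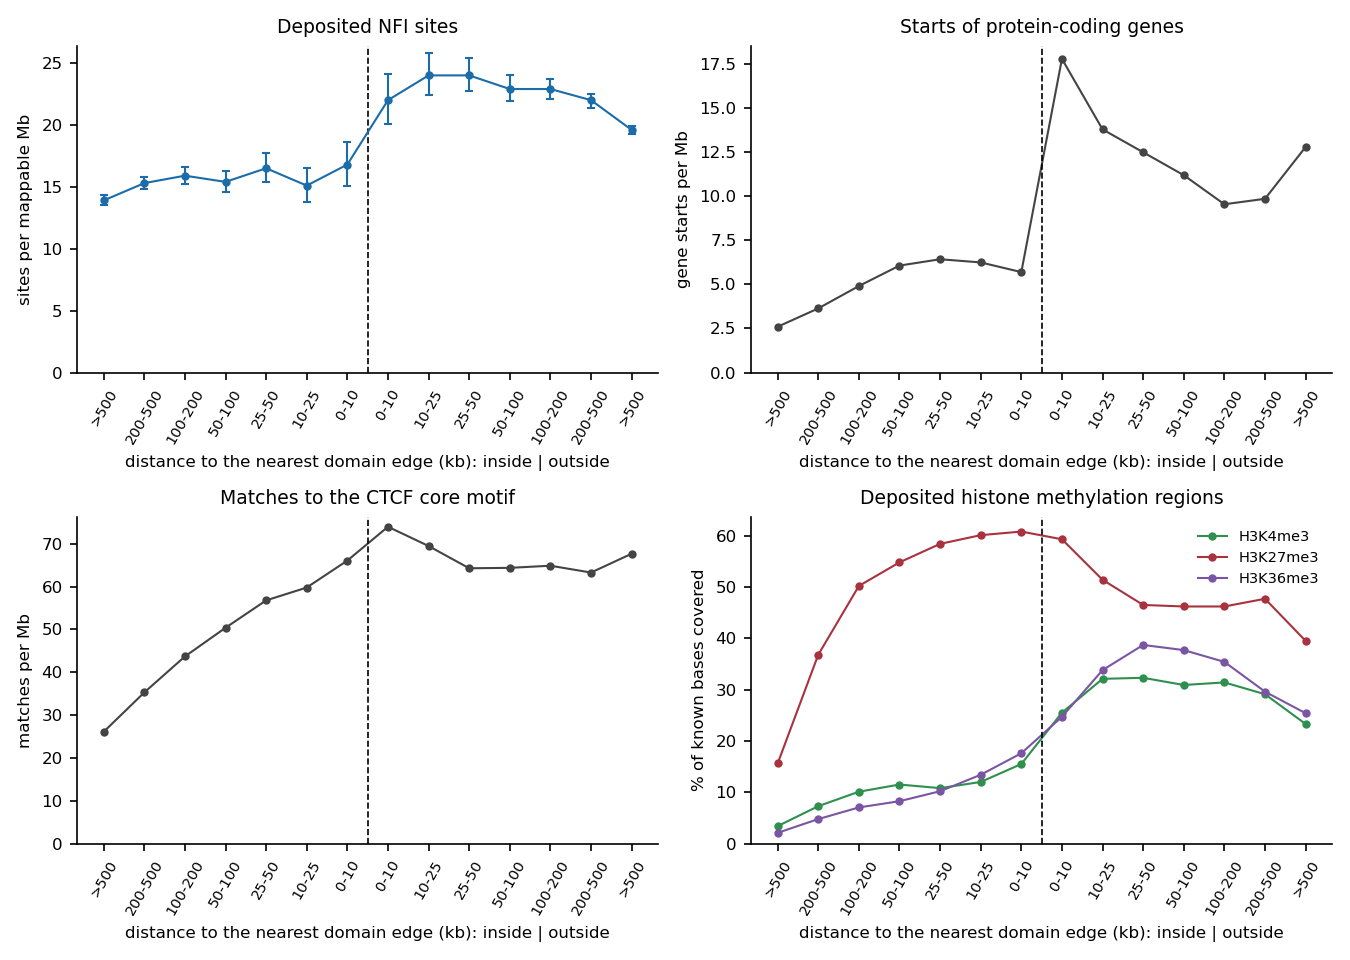
Deposited NFI sites per mappable Mb (95% Poisson intervals), gene starts per Mb, CTCF core motif matches per Mb, and percent of known bases in deposited H3K4me3, H3K27me3 and H3K36me3 regions, by distance to the nearest domain edge in kb. Gene starts peak at 17.8 and CTCF matches at 74.0 in the first 10 kb outside, while NFI sites step from 16.8 to 22.0 and H3K27me3 regions cover 60.8% just inside.

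Regions rich in histone methylation were deposited by the authors as broad partitions of ChIP-Seq tags. The study took its methylation data from an earlier experiment on MEF. H3K4me3 regions, which mark active promoters, covered 7.40% of the bases inside the domains and 25.6% beyond. H3K36me3 regions, which mark transcribed genes, covered 5.49% and 27.5%. H3K27me3 regions covered 36.1% inside, 48.7% in the outer flank and 42.2% beyond. They were most extended in the first 10 kb inside an edge, at 60.8%, with 59.3% in the first 10 kb outside, and covered 15.6% more than 500 kb inside. The interior of long domains was poor in all 3 kinds of region, and the border zone was rich in H3K27me3.

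NFI sites inside the domains had the chromatin surroundings of the domains, but less strictly. Of the 12878 sites, 2510 (19.5%) were in H3K4me3 regions, 6510 (50.6%) in H3K27me3 regions and 1455 (11.3%) in H3K36me3 regions, all above the share of bases inside that these regions cover. Beyond 100 kb the shares of sites were 53.4%, 56% and 46.2%, also above those of bases. In none of the 3 kinds of region were 5321 sites inside and 3324 beyond. Sites within 5 kb upstream of the start of any annotated transcript made up 4.59% (4.23 to 4.96) inside and 14.4% (13.9 to 14.8) beyond, and those in gene bodies 39.1% and 56.2%. Seen from the genes, 521 of the 4110 that start inside (12.7%) had such an upstream site, against 2877 of 15525 (18.5%) beyond.

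At deposited sites the wild-type tags were nearly alike inside and beyond, and the other libraries, over all sites, were lower inside. The wild-type tags chose the sites, so their level is a description. In 300 bp they averaged 3.21 inside, 8.17 times the genome average, and 3.31 or 8.43 times beyond. The knock-out ChIP stood at 1.72 times (1.68 to 1.76) inside and 2.31 times (2.28 to 2.35) beyond. The input stood at 1.33 times (1.3 to 1.36) and 2.19 times (2.16 to 2.22). Wild-type over input was thus higher at sites inside than beyond, at 6.16 (6.01 to 6.31) against 3.85 (3.8 to 3.91). As the wild-type levels were nearly alike, this difference lay mostly in the mean input. The median input was 0 tags both inside and beyond. At least 5 input tags lay at 68 of the 12878 sites inside and at 615 of the 22506 beyond. Knock-out over input was 1.3 (1.26 to 1.34) inside and 1.06 (1.04 to 1.08) beyond. No knock-out tag was seen at 8106 sites inside (62.9%) and 12651 beyond (56.2%), at a genome average of 0.367 tags in 300 bp, so that the lack of a tag is no sign of lost binding. Mean G and C content in these 300 bp was 39.6% inside and 43.9% beyond.

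Levels at the sites also differed between kinds of region. At the sites in H3K4me3 regions inside the domains, the wild-type ChIP stood at 8.86, the knock-out ChIP at 3.10 and the input at 2.35 times the genome average. Beyond they stood at 8.68, 3.01 and 3.02, so that the input was lower inside. At the sites in H3K27me3 regions, the largest class inside, they stood at 8.32, 2.11 and 1.57 inside and at 8.58, 2.66 and 2.75 beyond. At the sites in none of the 3 kinds of region they stood at 7.98, 1.23 and 0.996 inside, and at 8.13, 1.45 and 1.19 beyond. In H3K36me3 regions they stood at 9.01, 2.86 and 2.56 inside and at 8.62, 2.63 and 2.86 beyond. The input was lower inside than beyond in each of these classes, and the knock-out ChIP in those of H3K27me3 and of no mark.

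The NFI palindrome itself was spread evenly. Matches with at most 1 mismatch numbered 2.34 per Mb inside, 2.55 in the outer flank and 2.30 beyond, and those with at most 2 mismatches 41.4, 41.3 and 41.3, a genome value of 41.3. Deposited sites were less dense inside, while these matches were not. Few sites hold a match, and the part of the motif in the lower site density was not tested. A match with at most 2 mismatches lay at 2.77% (2.50 to 3.07) of the sites inside and 3.31% (3.08 to 3.56) of those beyond. Over all sites the share was 3.12%. How often other windows of 300 bp hold such a match was not counted, so the shares are not read as an excess.

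Both ChIP libraries were higher at palindrome matches than around them, a little less so inside the domains. Centred on the 2387 matches with at most 1 mismatch inside the domains, the wild-type ChIP held 1707 tags in 300 bp, 1.82 times the genome average (1.74 to 1.91) and 1.78 times its own level 500 to 5000 bp away (1.69 to 1.87). At the 3047 matches beyond, it stood at 2.18 times the average (2.09 to 2.26) and at 1.99 times the surroundings (1.92 to 2.07). The ratio of these centre over surroundings values was 0.893 (0.839 to 0.951), with a normal approximation of the log ratio. In the knock-out ChIP it was 0.850 (0.794 to 0.911), from 1.58 inside and 1.85 beyond. The input was far closer to its surroundings, with 1.08 (1.02 to 1.14) inside and 1.01 (0.960 to 1.06) beyond.

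The few matches without mismatch went the other way for the wild-type ChIP before division by the input, within a wide interval. It stood at 4.96 times the genome average (4.18 to 5.83) at the 75 such matches inside and at 4.56 times (3.81 to 5.42) at the 72 beyond. The knock-out ChIP stood at 2.65 times (2.08 to 3.33) inside and 3.90 times (3.18 to 4.72) beyond. Wild-type over knock-out ChIP was thus 1.87 (1.40 to 2.51) at perfect palindromes inside and 1.17 (0.897 to 1.53) at those beyond. Of the matches inside 16 (21.3%, 12.7 to 32.3) coincided with a deposited site, and of those beyond 7 (9.72%, 4.0 to 19). With 1 mismatch the order was the opposite, 52 of 2312 (2.25%, 1.68 to 2.94) inside and 107 of 2975 (3.6%, 2.96 to 4.33) beyond. These shares rest on 1 library per condition.

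**Figure D5:**
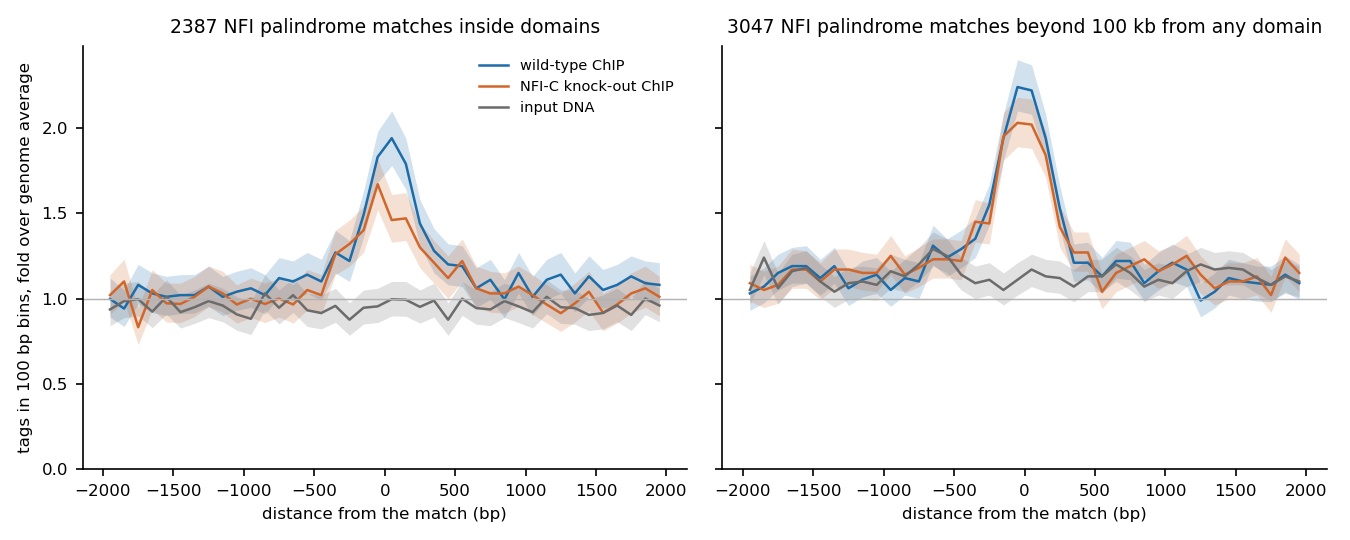
Tags of the 3 libraries in bins of 100 bp around NFI palindrome matches with at most 1 mismatch, as fold over the genome average, for 2387 matches inside domains (left) and 3047 beyond 100 kb (right), with 95% Poisson intervals as bands and the distance from the match in bp. The wild-type ChIP reaches 1.94 inside and 2.24 beyond next to the match, the knock-out ChIP 1.67 and 2.03, and the input 0.996 and 1.17.

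Among the NFI genes themselves, Nfia started 569 kb inside a domain of the transferred set, with its whole body in it. It held 19 deposited sites over its 429 kb and 758 tags (wild-type), 706 (knock-out) and 873 (input). The wild-type over input quotient was 1.06 (0.963 to 1.17). Nfib started 78.5 kb inside, but only 18.9% of its 416 kb lay in the domain. It also held 19 sites, 3 of them in the domain part. Nfic and Nfix lay 2399 and 2120 kb from the nearest domain, with 1 and 3 sites. Both long genes of the family started in domains, Nfib with most of its body outside, and the 2 shorter ones lay far from any.

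None of 13 genes used as fibroblast genes started in a domain. Col1a2, a chain of type I collagen, and Pdgfra, a PDGF receptor, started in the outer flank, 62 and 64.0 kb from an edge, and the other 11 beyond 100 kb. Col1a2 had 6 sites and 97 tags (wild-type), 80 (knock-out) and 91 (input), and Pdgfra had no site and 72, 62 and 105 tags. Fn1, which encodes fibronectin, started 150 kb from an edge and had 5 sites, and Prrx1, a transcription factor gene of mesenchyme, started 234 kb away and had 7. The share of all protein-coding genes that start inside was 18.4%, and that of collagens 27.9%, so the 0 of 13 describes these genes alone.

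Several genes chosen for their role in other tissues, mostly neurons, started inside a domain. Cdh8, a neuronal cadherin gene, started 2475 kb from the edge and held 6 sites, with 457 tags (wild-type), 445 (knock-out) and 460 (input). The axon guidance receptor gene Dcc lay wholly inside with 19 sites and 1474, 1508 and 1595 tags. The wild-type over input quotients were 1.22 (1.07 to 1.39) for Cdh8 and 1.13 (1.05 to 1.21) for Dcc, beside 1.14 in the deep interior. Cdh8 spans 392 kb and Dcc 1092 kb, and all domains together held 15 sites per mappable Mb. Sites in genes of this length therefore do not set them apart. Cdh9 lay wholly inside without a site and had 102, 99 and 102 tags. The short genes Sox2 and Neurog2, both of neural progenitors, also lay inside without a site. There the input exceeded the ChIP libraries, with 3 tags (wild-type), 4 (knock-out) and 40 (input) at Sox2 and 8, 2 and 42 at Neurog2. Cdh10 and the guidance receptor gene Robo1 started outside, 198 and 336 kb from an edge, with 4 and 16 sites, of which 2 of Robo1 lay in a domain that takes up 11.6% of the gene.

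Gene families differed in their share of members inside, beside 18.4% (4110 of 22367) of all protein-coding genes. Clustered protocadherins, cell adhesion molecules of neurons, had 23 of 24 starts inside, GABA-A receptor subunits 12 of 19 (63.2%), olfactory receptors 557 of 1113 (50.0%), ionotropic glutamate receptor subunits 10 of 22 (45.5%) and keratin associated proteins 19 of 46 (41.3%). Low shares were found for cytosolic ribosomal proteins (3 of 82), proteasome subunits (1 of 42) and histone genes (2 of 67), which all cells use. Hox genes had 2 of 40 inside and 27 in the outer flank, and the remaining 11 started beyond 100 kb. Collagens had 12 of 43 inside (27.9%). Vomeronasal receptors had 8 of 328, beta defensins 2 of 41 and type I interferons 0 of 16 inside. These families are known to have expanded separately in rodents, and the part of the human origin of the domains in their low shares was not tested. An upstream NFI site was found for 34 of the 557 olfactory receptor genes inside (6.10%) and 23 of the 527 beyond (4.36%), beside 12.7% and 18.5% of all protein-coding genes. Members of a cluster are neighbours and share domains, so they are not independent.

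Fewer than 5 input tags lay at 12810 of the sites inside domains, and the 10 of these that led in the wild-type ChIP had 8 to 12 tags in 300 bp. Of these 10 sites, 8 lay in at least 1 of the 3 kinds of region, as did all but 5321 of the 12878 sites inside. The highest was in an intron of Tec, which encodes a tyrosine kinase of blood cells, 6.94 kb from the edge of a domain of 0.258 Mb, with 12 tags (wild-type), 7 (knock-out) and 1 (input). An intronic site of Mcc on chromosome 18 had 11, 3 and 0 and held a palindrome without mismatch. Sites in an intron of Rcan2, an inhibitor of calcineurin, and 342519 bp from the nearest gene Adamts9 both had 9 wild-type tags, with 1 and 2 knock-out and 2 and 3 input tags, and no palindrome. The site near Eya1, a developmental transcription cofactor gene, had 8, 4 and 1 and lay in no marked region. The tenth place was shared by 8 sites with 8 tags, so the count of sites in marked regions can depend on the choice among them. In each case the knock-out count was below the wild-type count, which the choice by wild-type tags favours.

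Upstream sites were counted from the start of any annotated transcript. Of the genes with a start inside a domain, those with the strongest upstream site were Acadm, Secisbp2, Olfr902, Olfr983 and Aqp4. The sites of Acadm and Secisbp2 lay within these genes, 1538 and 3026 bp upstream of the start of a shorter transcript, and not upstream of the gene itself. The tags of Acadm are given above with its sequence. In the order wild-type, knock-out and input, Secisbp2 had 8, 4 and 1 tags, Olfr902 7, 0 and 0, Olfr983 7, 2 and 1, and Aqp4 6, 2 and 0. Secisbp2 encodes a factor of selenoprotein synthesis and Aqp4 a water channel of astrocytes. The sites at both olfactory receptor genes, on chromosome 9, lay in none of the 3 kinds of marked region, and the site at Acadm in all of them. Sites upstream of a transcript inside the domains occurred both in marked and in unmarked surroundings.

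The longest domain, chrX:110327523-125830602 in mm9, spanned 15.5 Mb and held 34 gene starts, among them Dach2 and Pcdh11x. It had 67 sites, or 6.89 per mappable Mb, and 13281 tags (wild-type), 12361 (knock-out) and 13820 (input), a wild-type over input quotient of 1.18 (1.15 to 1.2). H3K27me3 regions covered 0.183% of it. The next longest, chrX:57660467-67581850, had 8.62 sites per mappable Mb, and the remaining 3 of the 5 longest, all on autosomes, had 15.4 to 19.9. The 5 had wild-type over input quotients of 1.14 to 1.2 and G and C contents of 37.2 to 38.6%. Both X domains were poorer in sites than the long autosomal ones. The X chromosome had few sites outside domains as well, 523 beyond 100 kb and 541 inside, and its inside over beyond ratio of 0.863 was the closest to 1 of all chromosomes.

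Site density was ranked among domains of at least 500 kb, and 2 of the 5 densest rest on few known or mappable bases. In this ranking the highest density, 53.4 sites per mappable Mb, belonged to chr1:84843596-87623362, of which 0.780 of 2.78 Mb are known bases and 28.8% of those mappable, so that 12 sites made up the value. The fifth, chr13:92099363-92815692, had 2 sites on 0.0619 Mb of known bases. Of the others, chr11:34662500-35573697 with the start of the guidance factor gene Slit3 had 35 sites (41.0 per mappable Mb). H3K27me3 regions covered 85.6% of it and H3K4me3 regions 62.7%. The domain chr16:33999884-34651844 with the start of Kalrn had 23 sites (37.9). Their wild-type over input quotients were 1.09 (1.01 to 1.17) and 1.00 (0.923 to 1.09), beside 1.08 over all domains together. Their G and C contents were 45.1 and 45.2%, and windows of 44 to 46% inside the domains stood at 0.945. The domain chr5:4199023-4736275, without a gene start, had 17 sites (39.8).

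The highest wild-type over input quotient among domains of at least 500 kb was 1.41 (1.28 to 1.55), in chr19:20518000-21083250 with the aldehyde dehydrogenase genes Aldh1a1 and Aldh1a7. It had 866 tags (wild-type), 668 (knock-out) and 753 (input) and 13 sites. Next came chr2:110251245-110825248 with Slc5a12, Muc15 and Ano3, at 1.31 (1.18 to 1.45). In both, wild-type over knock-out ChIP was also above 1, at 1.21 (1.09 to 1.34) and 1.23 (1.11 to 1.37). In chr1:170365385-170949713 it was 0.986 (0.895 to 1.09) at a wild-type over input quotient of 1.29. Knock-out over input in these domains was 1.16 (1.04 to 1.29) on chromosome 19, 1.06 (0.954 to 1.18) on chromosome 2 and 1.31 (1.19 to 1.45) on chromosome 1. It shares the input tags with the quotient by which the domains were chosen. These domains were chosen as the extremes of a measure and their values are a description. Over all 601 domains of at least 500 kb, Spearman's rho between the wild-type over input quotient and site density was 0.171, and between G and C content and site density 0.00586.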

How the data were processed

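Reads were aligned by the authors with ELAND (genome mm9) and deposited one by one with match and position, without normalization. These reads were counted here by 5′ end on chromosomes 1 to 19, X and Y, keeping 1 tag where position and strand were the same. The authors also deposited NFI sites made with ChIP-Peak (5 tags in 300 bp, repeat filter), methylation regions made with ChIP-Part, and the lamina domains. The lamina map is from human Tig3 cells. The genome was NCBIM37, the same build as mm9, and genes came from GENCODE vM1. Sequences were read from NCBIM37. The domain analysis used mappable bases of 32-mers found once. Domains, gene lists, motifs and rules for named sites were chosen with earlier results of these data known.

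Genes named were NFI, fibroblast and neural lists, of which some members are not reported here. Sites and domains named were those with the most tags, sites or length. Ratios used exact conditional binomial intervals, except for centre over surroundings ratios (normal approximation). Sites with few tags have wide counting errors. Quotients were tested on simulated data with known answers. Alternatives covered duplicate tags, mismatches, parts of libraries, flank width, chromosomes, base composition, input-rich windows, domain length, site choice and motif settings. MicroRNA files were not used. Scripts ran in Python 3.11.15 with SciPy 1.17.1, NumPy 2.4.6, Numba 0.67.0, pandas 2.3.3 and, for plots, matplotlib 3.10.9.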

Additional observations from a re-analysis of the deposited data

How the results depend on the processing

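The lower site density inside the domains and the lower rise of the wild-type ChIP at palindromes kept their direction in all 11 and 13 alternatives, while the tag quotients were reversed by 1 of 14 (wild-type over input), 1 of 14 (knock-out over input) and 1 of 15 (wild-type over knock-out). The one that reversed them weighted the outside to the G and C content of the domains in 1 kb windows, chosen after seeing the data, and gave inside over outside ratios of 0.988, 0.991 and 0.997 in this order. Site density was then 0.780. The same in 10 kb windows gave 1.01, 1.01 and 1.00, and 0.789 for site density. Counting every uniquely mapped tag gave 1.11, 1.05 and 1.06, and exact matches gave 1.15, 1.13 and 1.02. Domains of at least 500 kb gave 1.14, 1.12 and 1.02. Leaving out the 10 kb windows with the most input tags gave 1.12 for the wild-type and 1.1 for the knock-out over input. Site density was 0.747 for sites with fewer than 5 input tags, 0.576 for sites with at least 5 wild-type tags and 0.809 per wild-type tag. The palindrome ratio was 0.952 with at most 2 mismatches and 0.925 (0.866 to 0.989) with the G and C weights in 10 kb windows. Matches without mismatch were not among the alternatives and gave 1.19 (0.922 to 1.53). Why these moved was not tested, other than that weighting makes base composition equal. Each library was also split into parts by the start of its read names. With 1 such part left out, the ratios ranged from 1.12 to 1.16, from 1.1 to 1.15 and from 1.01 to 1.02. The palindrome ratio then ranged from 0.877 to 0.893. No paired analysis was possible because each condition had 1 library. Depth limits single sites and short genes, which hold few tags, and the human origin of the domains limits all values.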
